A study of Homo sapiens with 40 samples.

Results

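N6-methyladenosine (m6A) is the most common internal modification of mRNA, and the 10 genes described here place, remove or read it. They were METTL3, METTL14, WTAP and VIRMA of the methyltransferase complex (the writer), the demethylases FTO and ALKBH5 (the erasers), the cytoplasmic readers YTHDF1, YTHDF2 and YTHDF3, and the nuclear reader YTHDC1. They were taken by name, as the rows of the deposited count table whose Ensembl identifiers map to them, 10 of 62263 genes. All 10 had enough counts to be among the 16735 genes tested.

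The RNA came from BEAS-2B, an immortalised human bronchial epithelial line, split by Frac-seq. This method sequences total mRNA (input) beside the mRNA that sediments with several ribosomes (polysome). Cells carried a stable control hairpin or a hairpin against IGF2BP3, itself an RNA-binding protein that prefers m6A-marked mRNA, and were grown in 10% serum, held overnight in 2% serum, and then kept without cytokine (unstimulated) or exposed to 100 ng/ml of IL-13 over 24 h. The 40 libraries, made after polyA selection, formed 8 groups of 5: unstimulated control, IL-13 control, unstimulated knockdown and IL-13 knockdown, each as input and as polysome. Sample names carry siC and siIGF2BP3 where the protocol describes stable hairpin lines. Each hairpin was carried by 1 line, and the effect of the knockdown and of anything else that sets these lines apart cannot be told apart. The labels do not say what separates replicates, so p-values measure the spread between these samples, which may be technical.

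Input libraries held 26558306 ± 6565277 estimated counts (SD, n = 20) and polysome libraries 19066938 ± 11019832 (SD, n = 20). Only 3 libraries held fewer than 5000000 counts, all of them knockdown polysome. The hairpin target IGF2BP3 measured 35.2 ± 11.3 CPM (counts scaled for library size) in unstimulated control input and 24.9 ± 3.02 in unstimulated knockdown input (SD, n = 5), and over both treatments the knockdown minus control value in input was -0.48 ± 0.26 on the log2 scale (SE, edgeR adjusted p = 0.957). Directions given for the knockdown therefore rest on the labels. In input the keratins KRT8 and KRT18 averaged 945 and 648 TPM (a level scaled for transcript length and library size), but the epithelial markers EPCAM, CDH1 and KRT5 averaged 0.363, 0.258 and 0.113 TPM, the mesenchymal marker VIM averaged 1261 TPM, and the leukocyte marker PTPRC was at 0 in all 20 input libraries. As a check of the fractions, the 13 mitochondrially encoded mRNAs, which are translated outside cytosolic polysomes, were all lower in polysome (median log2 difference -3.17), as were the nuclear RNAs MALAT1 (-1.81) and NEAT1 (-2.19).

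METTL3 is the catalytic subunit of the writer and works as a heterodimer with METTL14, which helps bind the RNA. WTAP holds the dimer in nuclear speckles and VIRMA is a large scaffold that recruits the complex to parts of the transcript near the stop codon. FTO and ALKBH5 are oxygenases that remove the methyl group. The YTH domain of the readers binds the modified base: YTHDF2 is best known for recruiting mRNA decay, YTHDF1 and YTHDF3 have been linked to translation, and YTHDC1 acts in the nucleus on splicing and export.

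Compared per transcript length, as TPM in the 20 input libraries, the order of the mRNAs ran from WTAP at 59.0 ± 10.9 to METTL14 at 1.30 ± 0.277 (SD, n = 20). WTAP and ALKBH5 (58.1 ± 5.92 TPM) did not differ beyond their spread: WTAP was the higher in 9 of 20 libraries. YTHDF1 (38.6 ± 5.40), YTHDF2 (32.6 ± 4.74) and METTL3 (20.0 ± 2.76) followed. Each of these was above the next in 20 of 20 libraries, down to METTL3. METTL3 lay above FTO (16.9 ± 6.01) in 14 of 20 libraries, with an adjusted p of 0.0249 in a two-sided sign-flip permutation test over the 9 neighbouring pairs. FTO and YTHDF3 (16.3 ± 4.53) did not differ beyond their spread (11 of 20 libraries, adjusted permutation p = 0.850). YTHDC1 (12.2 ± 2.48), VIRMA (8.65 ± 1.92) and METTL14 then came each below the one before in 20 of 20 libraries. For the 6 neighbouring pairs that kept their order in every library the adjusted p was 0.00001, the smallest that 100000 resamples can give.

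The catalytic subunit and its partner were thus far apart in mRNA level. METTL3 mRNA exceeded METTL14 mRNA by 15.6-fold in input (geometric mean of the TPM ratio, between 10.8 and 23.2 over 20 libraries). METTL3 exceeded the scaffold VIRMA by 2.34-fold (1.51 to 3.67), and WTAP exceeded METTL3 by 2.93-fold (2.02 to 4.63). All 3 ratios kept their direction in every input library.

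In polysome RNA the order by TPM was WTAP at 66.6 ± 22.1, YTHDF1 at 65.0 ± 9.04, ALKBH5 at 53.7 ± 12.9, FTO at 14.5 ± 8.09, YTHDF2 at 14.4 ± 4.38, METTL3 at 9.38 ± 3.47, YTHDF3 at 5.86 ± 3.39, YTHDC1 at 3.27 ± 1.49, VIRMA at 1.34 ± 0.666 and METTL14 at 0.388 ± 0.393 (SD, n = 20). Several neighbours in this order did not differ beyond their spread on log2(TPM + 0.1): WTAP was above YTHDF1 and FTO above YTHDF2 in 9 of 20 libraries each (adjusted sign-flip permutation p = 0.737 and 0.448 over 9 pairs), METTL3 above YTHDF3 in 13 (0.163) and YTHDF3 above YTHDC1 in 18 (0.448). YTHDF3 was listed at 0 in 2 polysome libraries, where YTHDC1 was above 0, and lay above YTHDC1 in all the others. The p for that pair therefore depends on the 0.1 TPM added, and it is no sign of equal levels. YTHDF1 lay above ALKBH5 in 15 of 20 libraries (adjusted permutation p = 0.0167), where in input ALKBH5 had been the higher in all 20. The last 3 means were those of the same genes as in input.

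**Figure D1:**
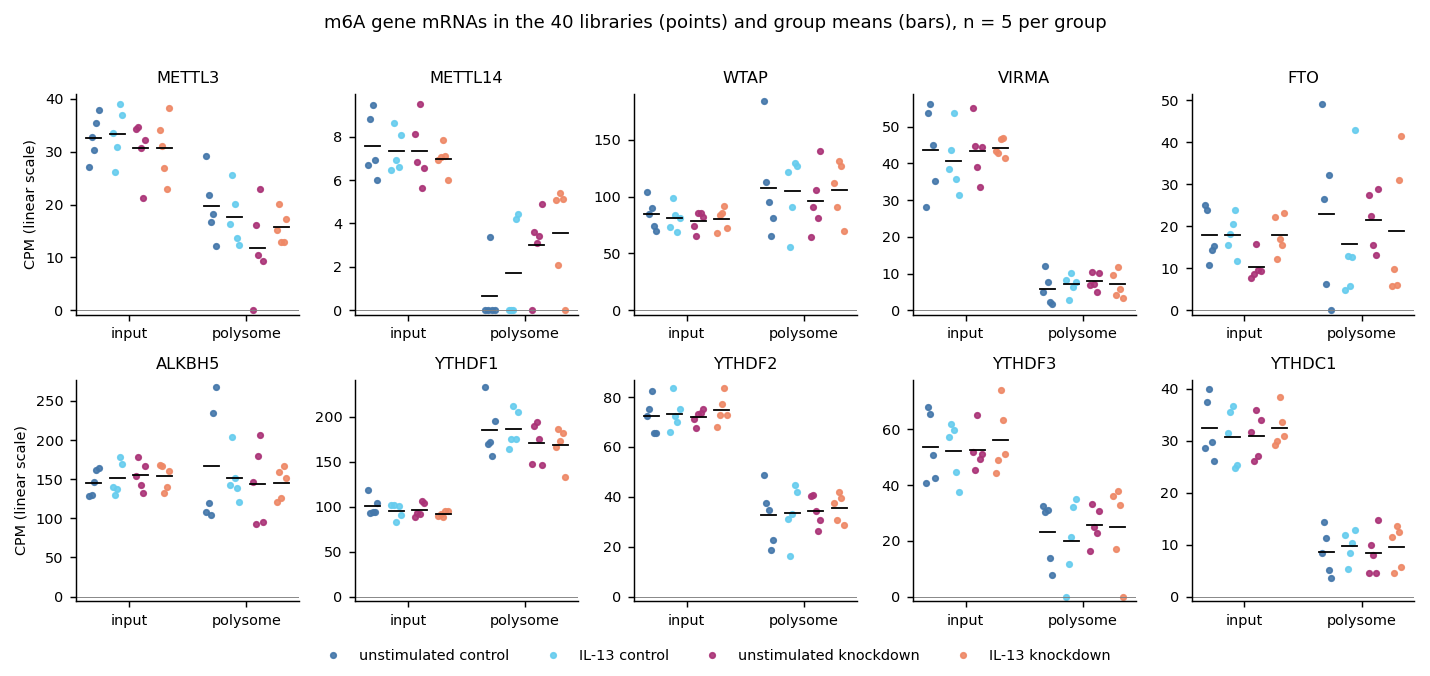
Level of each of the 10 mRNAs in each of the 40 libraries (points, CPM on a linear axis from 0, 1 panel per gene) with the mean of each group of 5 (black bars). VIRMA, YTHDF2, YTHDF3, YTHDC1 and METTL14 lie lower in polysome than in input without overlap in all 4 conditions, YTHDF1 lies higher without overlap, and METTL14 sits at 0 in 9 of the 20 polysome libraries. How many of all genes tested lie apart in this way was not counted, so the separation does not set these mRNAs apart.

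The difference between polysome and input was the main contrast among these mRNAs. Averaged over the 4 conditions, YTHDF1 and WTAP were higher in polysome, METTL3, METTL14, VIRMA, YTHDF2, YTHDF3 and YTHDC1 were lower, and FTO and ALKBH5 did not pass the test (edgeR quasi-likelihood test, called at a Benjamini-Hochberg adjusted p under 0.05 over all genes tested). This made 8 of 10 called, where 65.1% of all genes tested were called in this comparison, so that the number of calls itself does not set the 10 genes apart. By direction, 2 of the 10 were called higher, against 26.2% of all genes, and 6 lower, against 38.9%. The median log2 difference was -1.04 over the 10 genes and -0.24 over all genes tested. Within single conditions 5 of 10 were called in unstimulated control cells (40.2% of all genes), 6 in IL-13 control cells (39.3%), 5 in unstimulated knockdown cells (38.5%) and 5 in IL-13 knockdown cells (39.3%). VIRMA, YTHDF1, YTHDF2 and YTHDC1 were called in all 4 conditions. Ranges that do not overlap are given below as description, since the share of all genes with such ranges was not counted. All values are shares of a library's mRNA, and fewer cells holding an mRNA and less of it per cell cannot be told apart in bulk RNA.

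**Figure D2:**
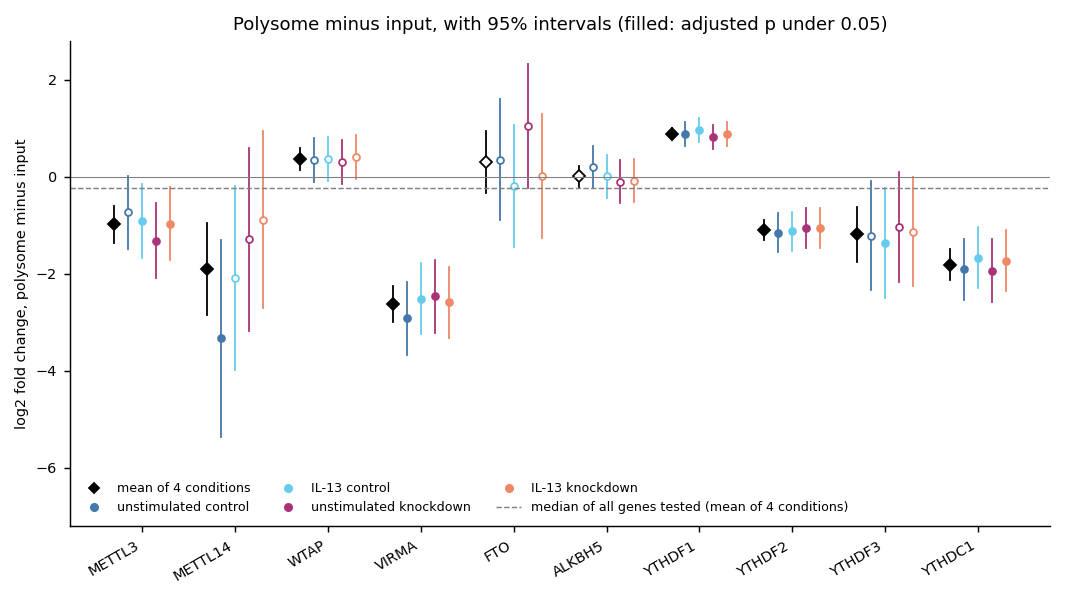
Log2 difference between polysome and input for each mRNA, as the mean of 4 conditions (diamonds) and in each condition (circles), with 95% intervals, filled where the adjusted p was under 0.05. The dashed line is the median of all genes tested for the mean of 4 conditions (-0.24). YTHDF1 is the only one of the 10 that lies above 0 with its interval in every condition, and VIRMA, at -2.63 for the mean, lies lowest.

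Among the writers, VIRMA had the lowest fitted value for the mean of 4 conditions, though METTL14 was lower in unstimulated control cells (-3.34 against -2.92) and, with the culture as a block, for the mean (-3.11 against -2.75). In unstimulated control cells it measured 28.1, 53.7, 56.3, 45.1 and 35.4 CPM in the 5 input libraries and 4.91, 12.2, 7.60, 2.30 and 1.78 CPM in the polysome libraries of the same replicate numbers. The highest polysome value was below the lowest input value, and the same held in the other 3 conditions, where polysome values ran from 2.69 to 11.9 CPM and input values from 31.5 to 55.1 CPM. Over the 4 conditions VIRMA was 6.17-fold lower in polysome (log2 -2.63 ± 0.18, SE, adjusted p = 1.45e-15).

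METTL3 was lower in polysome by a smaller step. In unstimulated knockdown cells it measured 34.3, 34.7, 30.7, 21.3 and 32.2 CPM in input and 0, 16.2, 10.4, 22.9 and 9.29 CPM in polysome. Replicate 1 was listed at 0, replicate 4 was high in polysome and low in input, and the ranges overlapped. The library at 0 held 3980585 counts in all, so a count of 0 allowed up to 0.748 CPM, while the next lowest of the 20 polysome libraries held 9.29 CPM from 19 counts. In both IL-13 groups the ranges did not overlap: 12.3 to 25.6 CPM in polysome against 26.1 to 39.0 in input for control cells, and 12.9 to 20.2 against 23.0 to 38.2 for knockdown cells. Over the 4 conditions METTL3 was 1.98-fold lower in polysome (log2 -0.99 ± 0.19, SE, adjusted p = 1.71e-05). Single conditions were near the threshold, with adjusted p-values of 0.115 in unstimulated control, 0.0477 in IL-13 control, 0.00504 in unstimulated knockdown and 0.0376 in IL-13 knockdown cells, and the IL-13 control call was lost in 8 and the IL-13 knockdown call in 6 of the 10 fits without a library of that comparison. The unstimulated knockdown call was lost in a fit on those 2 groups alone (adjusted p = 0.0857).

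METTL14 was present in every input library, between 5.65 and 9.51 CPM, and was listed at 0 in 9 of 20 polysome libraries. The polysome values were 0, 0, 3.36, 0 and 0 CPM in unstimulated control cells, 0, 0, 0, 4.21 and 4.45 in IL-13 control cells, 0, 3.59, 3.08, 3.42 and 4.89 in unstimulated knockdown cells, and 5.07, 2.10, 5.42, 5.15 and 0 in IL-13 knockdown cells. Zeros fell in 7 of 10 control and 2 of 10 knockdown polysome libraries. They were not the shallow libraries as a group: those at 0 held between 2302954 and 32876710 counts, where a count of 0 allows between 0.1002 and 1.30 CPM (3 counts per library, counting error only), and the lowest value above 0 was 2.10 CPM from 53 counts. Deposited TPM was 0 in the same 9 libraries. No value lay between 0 and 2.10 CPM, and the table does not show whether the quantification set these estimates to 0, a doubt that also touches the size of the METTL14 difference and the split of zeros between the lines. Of the 1397 genes with a mean between 5 and 10 CPM in input, 21 (1.50%) were at 0 in as many polysome libraries or more, and 74.5% were at 0 in none. For this band CPM were scaled by total counts alone (METTL14 at 7.68), and the genes were not matched for length or polysome level. No polysome library reached the lowest input value of its condition. Over the 4 conditions METTL14 was lower in polysome by a fitted 3.74-fold (log2 -1.90 ± 0.47, SE, adjusted p = 5.59e-04). The size rests on few libraries: unstimulated control polysome replicate 3 was the only one of its group above 0, and a fitted size without it is no bound and is not read. By condition METTL14 was called in unstimulated control cells alone (log2 -3.34 ± 1.00, SE, adjusted p = 0.00699).

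WTAP was the one writer subunit with a higher level in polysome, and by little. In IL-13 control cells it measured 73.0, 98.7, 84.0, 69.0 and 81.2 CPM in input and 121, 56.1, 91.1, 129 and 127 CPM in polysome. Replicate 2 was the highest input and the lowest polysome library, and the ranges overlapped in all 4 conditions. The mean over 4 conditions was 1.28-fold (log2 0.35 ± 0.11, SE, adjusted p = 0.00599), with no condition called alone (adjusted p from 0.160 to 0.328). On the deposited TPM the same comparison gave 0.12 with an adjusted p of 0.440 in limma. The average length of the WTAP transcripts, read from the ratio of deposited count to TPM, was 1701 ± 43.0 bases in input and 1815 ± 53.0 in polysome (SD, n = 20). In polysome RNA, WTAP exceeded METTL3 by 6.72-fold (2.38 to 16.8 over the 19 libraries with METTL3 above 0). METTL3 exceeded VIRMA by 8.47-fold (3.20 to 32.7) over the same 19 libraries. Both geometric means were larger than in input, but the input ranges (2.02 to 4.63 and 1.51 to 3.67) overlapped those in polysome. The library with METTL3 at 0 was left out, and it holds the lowest METTL3 to VIRMA ratio. METTL3 exceeded METTL14 by 13.1-fold (6.82 to 34.7) over the 11 libraries with METTL14 above 0. The 9 libraries with METTL14 at 0 were left out, so this value is not comparable with the input ratio. Over all 20 polysome libraries the mean TPM was 9.38 for METTL3 and 0.388 for METTL14. The polysome to input ratios of these 2 mRNAs did not differ beyond their spread (adjusted sign-flip permutation p = 0.0898). Those ratios add 1 CPM, which limits how low a library at 0 can fall.

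The eraser mRNAs did not differ between polysome and input beyond their spread. ALKBH5 measured 128, 130, 146, 161 and 164 CPM in unstimulated control input and 108, 119, 104, 235 and 268 CPM in polysome. Replicates 4 and 5 were above every input library of the condition and the other 3 below all of them. The mean over 4 conditions was 0.00 ± 0.11 (log2, SE), with a 95% interval from -0.22 to 0.22. The sign of that value changed between settings, which ran from -0.14 on TPM to 0.15 without the libraries under 5000000 counts.

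FTO varied widely between polysome libraries. In IL-13 knockdown cells its polysome values were 5.86, 9.85, 5.96, 31.1 and 41.6 CPM, against 22.3, 12.1, 16.9, 15.6 and 23.3 CPM in input. The polysome values lay on both sides of the input range. Unstimulated control polysome replicate 5 was listed at 0, with 10075828 counts in all, while replicate 1 of that group held 49.2 CPM. The mean over 4 conditions was 0.30 ± 0.31 on counts (log2, SE, adjusted p = 0.405), with an interval from -0.33 to 0.93, and was -0.60 on TPM in limma. In unstimulated knockdown cells FTO measured 10.3 ± 3.14 CPM in input and 21.5 ± 6.97 in polysome (SD, n = 5), a log2 difference of 1.05 ± 0.63 (SE, adjusted p = 0.203) that passed only in a fit on those 2 groups (1.13, adjusted p = 0.00386).

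For FTO counts and TPM parted, and the transcripts assigned to it differed in length between libraries. The average length implied by count and TPM ran from 710 to 2275 bases over the 20 input libraries and from 657 to 3303 bases over the 19 polysome libraries above 0. For YTHDF2, by contrast, it ran from 2761 to 2799 bases in input. GENCODE 29 lists 23 FTO transcripts, of which 13 are coding and between 210 and 11766 bases long. In unstimulated knockdown input the implied length was 833 ± 128 bases, against 1384 ± 568 in unstimulated control input (SD, n = 5). FTO was 17.9 ± 6.23 CPM in unstimulated control input and 10.3 ± 3.14 in unstimulated knockdown input, and 17.6 ± 6.68 and 15.7 ± 4.78 on TPM (SD, n = 5). The gap between the lines was thus smaller per length than by count. Of the 31-base words in FTO transcripts 5.26% also occur in transcripts of other genes. How far the assignment of reads among FTO transcripts set its levels was not tested.

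**Figure D3:**
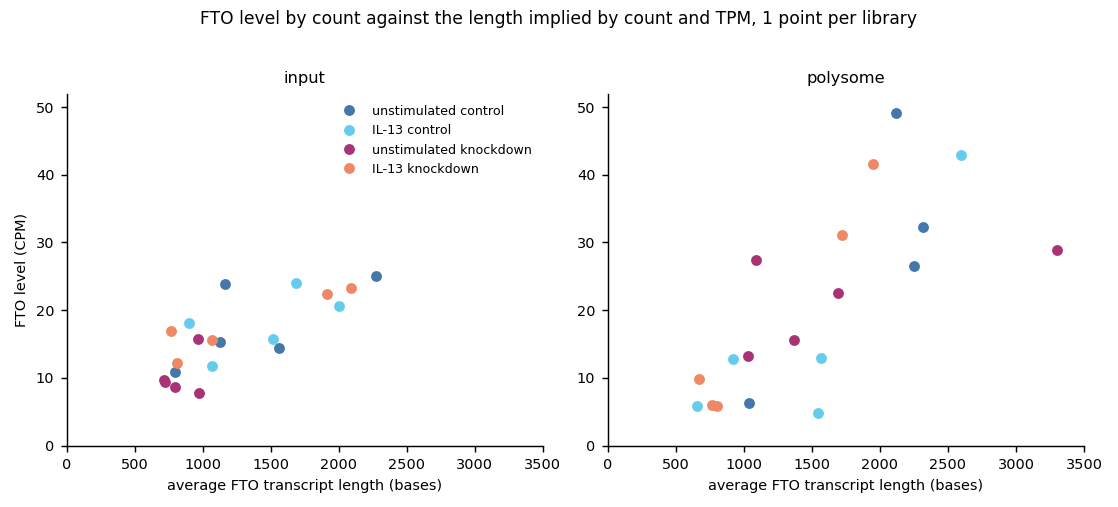
FTO level (CPM) against the average FTO transcript length (bases) implied by deposited count and TPM, 1 point per library, input on the left and polysome on the right (without the library at 0). Libraries of unstimulated knockdown input lie between 710 and 974 bases and between 7.73 and 15.7 CPM, at the short and low end, and polysome libraries spread over more of both axes. Both axes are computed from the same count.

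YTHDF1 and YTHDF2, close paralogs, went in opposite directions. YTHDF1 measured 118, 93.0, 94.6, 94.4 and 104 CPM in unstimulated control input and 234, 170, 172, 156 and 195 CPM in polysome. YTHDF2 measured 72.6, 75.2, 82.4, 65.6 and 65.4 CPM in the same input libraries and 48.7, 37.6, 34.8, 18.8 and 22.7 CPM in polysome. Every polysome library was above every input library for YTHDF1 and below every input library for YTHDF2, in this and the other 3 conditions. Over the 4 conditions YTHDF1 was 1.84-fold higher (log2 0.88 ± 0.06, SE, adjusted p = 1.34e-15) and YTHDF2 2.15-fold lower (log2 -1.10 ± 0.10, SE, adjusted p = 2.85e-12). By condition the YTHDF1 difference lay between 0.82 and 0.96 and the YTHDF2 difference between -1.15 and -1.06. In TPM, YTHDF1 exceeded YTHDF2 by 1.18-fold in input (1.00 to 1.51 over 20 libraries) and by 4.74-fold in polysome (3.46 to 9.51), and the 2 ranges did not overlap. With libraries matched by line, treatment and replicate number, the log2 ratio of polysome to input was higher for YTHDF1 than for YTHDF2 in 20 of 20 cases, by 1.99 ± 0.39 (SD, n = 20), a pair set side by side after its values were seen.

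Because the 2 genes are related in sequence, the stretches below show how far reads can separate them. They are the same part of the 2 coding sequences, each within 1 coding exon, from GENCODE 29 on GRCh38, with positions that differ between them in capitals (18 of 100). YTHDF1 lies at chr20:63202698-63202797 on the minus strand (ENST00000370339.7) and YTHDF2 at chr1:28743476-28743575 on the plus strand (ENST00000373812.7).
YTHDF1: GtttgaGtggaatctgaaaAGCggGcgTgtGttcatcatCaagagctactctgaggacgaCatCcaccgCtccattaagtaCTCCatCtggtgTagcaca
YTHDF2: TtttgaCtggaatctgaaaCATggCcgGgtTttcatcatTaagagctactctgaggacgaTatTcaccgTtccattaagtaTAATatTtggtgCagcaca
Along the whole aligned coding sequence 69.3% of 1656 positions were identical, and the longest run without a difference was 20 bases. The 2 genes shared no word of 31 bases, so that no exact match of that length could be credited to the wrong one. YTHDF2 shared 15.1% of its 31-base words with the pseudogene YTHDF2P1, and YTHDF1 shared 0.0303% with other genes, so YTHDF2 counts are the less certain of the pair.

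YTHDF3, the remaining cytoplasmic reader, measured 57.2, 61.8, 59.9, 44.8 and 37.6 CPM in IL-13 control input and 0, 11.8, 21.6, 32.2 and 35.1 CPM in polysome. Polysome replicate 1 was listed at 0 (9765979 counts), as was IL-13 knockdown polysome replicate 5 (2302954 counts), and in none of the 4 conditions did the ranges overlap. Over the 4 conditions YTHDF3 was 2.28-fold lower in polysome (log2 -1.19 ± 0.28, SE, adjusted p = 2.95e-04), and on TPM the difference was -2.02. Alone, only IL-13 control cells passed in the main fit (adjusted p = 0.0483), a call that 7 of the 10 fits without a library of that comparison lost. In edgeR fits on only the groups compared, unstimulated control (adjusted p = 0.0218) and unstimulated knockdown cells (0.00202) passed, and IL-13 control cells did not. On TPM in limma IL-13 knockdown cells passed (adjusted p = 0.0317). The implied length of YTHDF3 transcripts was 4124 ± 287 bases in input (SD, n = 20) and 4812 ± 422 in the 18 polysome libraries with enough counts (SD).

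The nuclear reader YTHDC1 measured 28.6, 37.5, 40.0, 29.8 and 26.1 CPM in unstimulated control input and 8.46, 14.4, 11.2, 5.18 and 3.68 CPM in polysome. The ranges were apart here and in the other 3 conditions, where polysome values reached at most 14.7 CPM and input values were at least 24.8 CPM. Over the 4 conditions it was 3.52-fold lower in polysome (log2 -1.82 ± 0.16, SE, adjusted p = 4.78e-13), and by condition the difference lay between -1.94 and -1.67. YTHDC1 and the scaffold VIRMA were thus the 2 mRNAs whose polysome level fell furthest with a call in every condition.

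The polysome difference varied with transcript length, so each mRNA was set beside genes of like length. Across the 16047 tested genes with a length, the median log2 difference was -0.36 for genes under 1000 bases and 0.31 for genes of 1000 to 2000 bases. From there it fell through 0.01, -0.28 and -0.50 in the next classes to -1.05 for genes over 6000 bases. VIRMA (6143 bases) lay at -2.63, a difference of -1.58 from the median of its class, and METTL14 (6974 bases) lay at -1.90 in the same class, inside its quartiles of -1.93 and -0.35. YTHDC1 (3211 bases) and YTHDF1 (3079 bases) fell in the same class, with a median of -0.28, and lay at -1.82 and 0.88. METTL3 (1947 bases) and WTAP (1701 bases) likewise shared a class, with a median of 0.31, and lay at -0.99 and 0.35. YTHDF2 (2770 bases) differed by -1.11 from its class median, while ALKBH5 lay within its quartiles. Pearson's r between the log of the length and the difference was -0.20 across genes, which are not independent replicates. The level of long relative to short genes (per library, the median log2 deviation from the input mean of genes of at least 6000 bases, minus that of genes under 2000 bases, the 10 members left out) ran from -0.49 to 0.44 in input and from -1.40 to -0.57 in polysome, and its part in the members' differences was not tested.

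**Figure D4:**
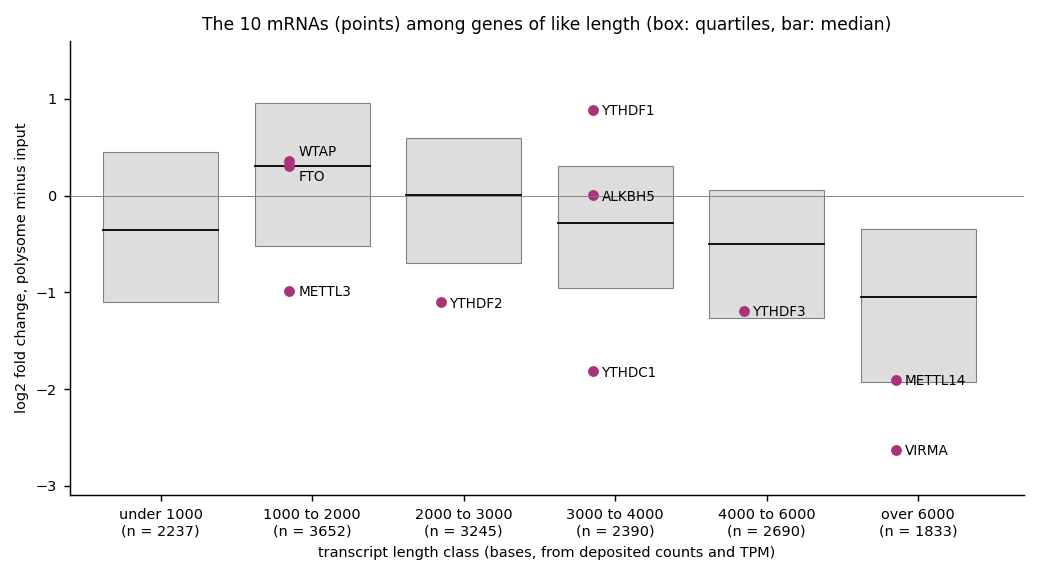
Polysome minus input log2 difference (mean of 4 conditions) of the 10 mRNAs (points) by transcript length class in bases, over the quartiles (boxes) and median (bars) of all genes of the class, with the number of genes under each. YTHDF1 at 0.88 lies above the upper quartile of its class, and METTL3, YTHDF2, YTHDC1 and VIRMA lie below the lower quartile of theirs.

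The other genes of the pathway were taken from lists of known m6A factors. Of 4 other writer complex subunits all 4 were lower in polysome, ZC3H13 at -2.41 ± 0.25, RBM15 at -1.07 ± 0.17, the E3 ligase-like CBLL1 at -0.75 ± 0.12 and RBM15B at -0.48 ± 0.07 (log2, SE, mean of 4 conditions), with a median of -0.91. Of 5 genes of other methyltransferases and their partners, METTL16, METTL5, TRMT112 and ZCCHC4 were not called. PCIF1, which methylates the base next to the cap, was higher (0.49 ± 0.10), and the median of the 5 was 0.26. Of 12 other readers 2 were higher, 6 lower and 4 not called, with a median of -0.72. ELAVL1, an RNA-stabilising protein, was higher (1.27 ± 0.06), and YTHDC2 (-2.79 ± 0.21), a YTH helicase, and IGF2BP3 (-1.52 ± 0.19) were lower. Of the 3 genes of methyl donor metabolism, MAT2B was higher (1.19 ± 0.06), and MAT2A (-0.47 ± 0.15) and AHCY (-0.48 ± 0.12) were lower. Of 5 decay effectors, POP4 was higher (1.39 ± 0.14), RIDA was not called, and UPF1 (-3.88 ± 0.37), CNOT1 (-1.96 ± 0.13) and POP1 (-1.78 ± 0.11) were lower. In all, 5 of these 29 genes were called higher, 15 lower and 9 not at all, against the 26.2% and 38.9% of all genes called higher and lower.

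The second question was whether the line changed these mRNAs. None of the 10 was called between knockdown and control in edgeR: not in unstimulated input (0.012% of all genes called), IL-13 input (0%), input over both treatments (0.406%), unstimulated polysome (0.0299%), IL-13 polysome (0.0896%) or polysome over both treatments (1.38%). At these backgrounds an absence of calls among 10 genes is not a result about them, and the intervals bound what could have been missed. For YTHDF1 the input difference over both treatments was -0.06 with a 95% interval from -0.23 to 0.12, for YTHDF2 0.01 (-0.27 to 0.30), for ALKBH5 0.06 (-0.25 to 0.37) and for WTAP -0.06 (-0.38 to 0.26). For METTL3 it was -0.11 (-0.63 to 0.42) and for VIRMA 0.06 (-0.43 to 0.54). FTO (-0.40, -1.29 to 0.49) and METTL14 (-0.06, -1.32 to 1.21) were bounded least. The shift of the line effect from input to polysome was called for none of the 10, unstimulated (0% of all genes) or with IL-13 (0.00598%).

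Over the 18 line and IL-13 comparisons, METTL14 in polysome gave the single value of 180 with an unadjusted p under 0.05. DESeq2 and limma called no member in these comparisons either. Over both treatments METTL14 was 1.56 ± 0.68 higher in knockdown polysome (log2, SE), with an unadjusted p of 0.0273 and an adjusted p of 0.260 in edgeR. In that comparison 2466 of all 16735 genes tested had an unadjusted p under 0.05. The library values given above overlap between the lines, with control values from 0 to 4.45 CPM and knockdown values from 0 to 5.42 CPM. Without unstimulated control polysome replicate 3, the library at 3.36 CPM, the comparison was called (adjusted p = 0.00657 over both treatments and 0.0379 in unstimulated cells). The other 4 libraries of that group are all at 0. Input METTL14 was 7.58 ± 1.48 CPM in unstimulated control and 7.33 ± 1.50 in unstimulated knockdown cells (SD, n = 5).

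For IL-13 too, few genes of any kind were called in edgeR, so an absence of calls among 10 is again not a result about them. No member was called in control input (0.0777% of all genes called), knockdown input (0.0837%), input over both lines (0.149%), control polysome (0.125%), knockdown polysome (0.0956%) or polysome over both lines (0.209%). Nor was any called for the difference between lines in the IL-13 effect, in input (0%) or polysome (0%), or for its shift from input to polysome in control (0%) or knockdown cells (0%). In input over both lines the IL-13 difference was 0.01 for METTL3 (95% interval -0.51 to 0.54), -0.06 for METTL14 (-1.32 to 1.20), -0.01 for WTAP (-0.33 to 0.31) and -0.04 for VIRMA (-0.52 to 0.45). For the erasers it was 0.41 for FTO (-0.48 to 1.30) and 0.02 for ALKBH5 (-0.29 to 0.33). For the readers it was -0.07 for YTHDF1 (-0.25 to 0.10), 0.04 for YTHDF2 (-0.25 to 0.32), 0.03 for YTHDF3 (-0.75 to 0.81) and 0.00 for YTHDC1 (-0.43 to 0.42). None of the 29 other genes of the pathway was called for the line or for IL-13 over both treatments or lines, in either fraction. Before adjustment, edgeR gave 1 of these 29 genes a p under 0.05 for the line in input, 4 in polysome, and none for IL-13 in either fraction. Of all 16735 genes tested, 983 in input and 2466 in polysome had such a p for the line. For IL-13 they numbered 328 and 884, so these counts are not a result about the pathway.

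**Figure D5:**
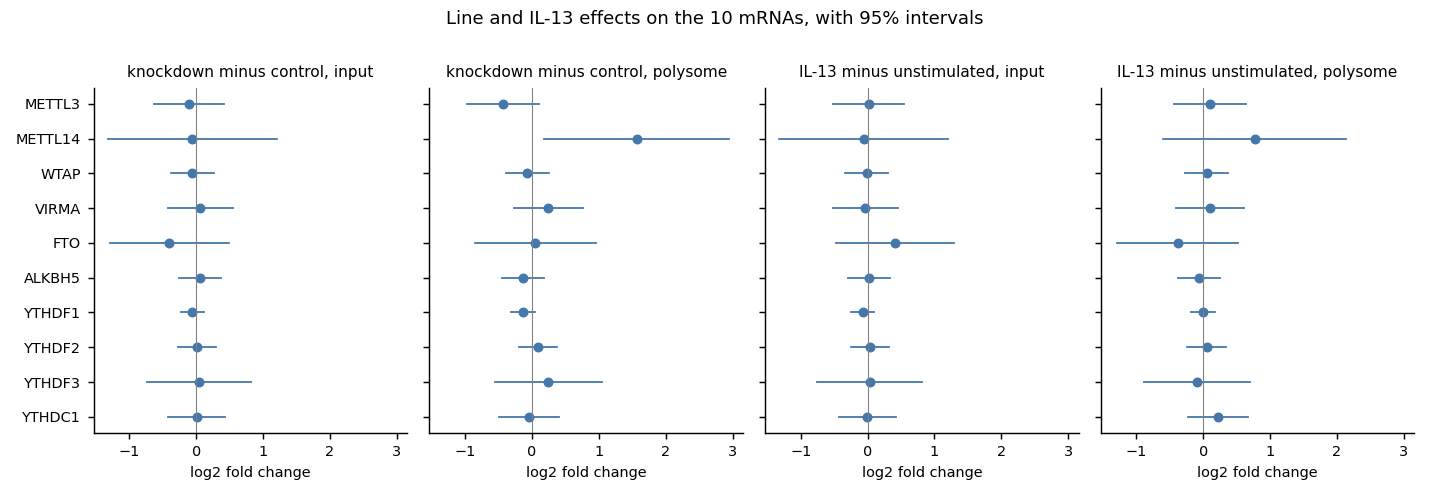
Log2 differences of the 10 mRNAs between the lines (mean of both treatments) and with IL-13 (mean of both lines), in input and polysome, with 95% intervals before adjustment for multiple tests. All intervals include 0 except METTL14 between the lines in polysome (0.19 to 2.94), which was not called after adjustment. YTHDF1 has the narrowest intervals.

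Likeness in pattern was taken over the 8 group means. Among 8911 genes of at least 10 CPM, the gene most like each member by Pearson's r of log2(CPM + 1) was TOP3B for METTL3 (r = 0.996), WWP1 for METTL14 (0.994), PRKRA for WTAP (0.992), KIF4A for VIRMA (0.999), SEC11A for YTHDF1 (0.999), DHX9 for YTHDF2 (0.9997), CHD2 for YTHDF3 (0.995) and ZNF106 for YTHDC1 (0.999). For VIRMA, YTHDF1, YTHDF2 and YTHDC1 the genes with an r above 0.95 numbered 2132, 2015, 2163 and 2185. For the erasers no gene did, with TRNT1 at 0.846 for FTO and TRMT2B at 0.887 for ALKBH5.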

How the data were processed

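Estimated counts (with decimals, not scaled for depth) and TPM (scaled for transcript length and depth) per gene and library were deposited by the authors in 1 table, per the file headers. The submitters' processing notes name Trimmomatic, Salmon, DESeq2 and MultiQC, without versions or roles, and the genome build and annotation are not given in the sources used here. Estimated counts were rounded to whole numbers, although the design had been written for plain counts where the table might hold them. The filter filterByExpr, given the 8 groups, kept 16735 of 62263 genes. After TMM scaling, edgeR 4.0.16 in R 4.3.3 fitted the mean of each group to the 40 libraries together (32 residual degrees of freedom). P-values were two-sided and Benjamini-Hochberg adjusted over all genes tested. Differences are knockdown minus control, IL-13 minus unstimulated and polysome minus input, averages of these, and interaction terms. CPM use TMM-scaled library sizes. Ratios of polysome to input added 1 CPM. TPM levels were compared between genes of a library, and their tests across libraries used limma 3.58.1 on log2(TPM + 0.1). DESeq2 1.42.0 was another alternative. The average transcript length of a gene came from its count over TPM, scaled by genes with a single transcript in GENCODE 29, which held 92.9% of the table's gene IDs without their versions. Symbols matched for 62246 IDs.

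All 10 genes were always to be named, and other genes of the pathway by the list they belong to, up to 4 called per list and comparison. The members, the lists, the ratios between genes and the length classes were chosen with earlier results of these data known. Replicate libraries all differed by more than sampling noise (lowest chi-square per degree of freedom 16.2 over 80 pairs). Reads carry no molecular identifiers, so limits from counts of 0 cover counting error only.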

Additional observations from a re-analysis of the deposited data

Results flagged for a closer look

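In 3 of the 80 groups of 5 libraries (10 genes in 8 groups) the most extreme library stood apart from the other 4 by more than Dixon's 95% value of 0.71 allows, where chance gives about 4. METTL14 in unstimulated control polysome replicate 3 was at 3.36 CPM (64 counts), and the other 4 libraries of the group were at 0. FTO in unstimulated knockdown input replicate 3 was at 15.7 CPM, with the others between 7.73 and 9.70 CPM, and its implied transcript length there was 964 bases. FTO in IL-13 control polysome replicate 5 was at 42.9 CPM, with the others between 4.88 and 12.9 CPM, and its implied length of 2595 bases was the longest of that group. The part of transcript assignment in the FTO values was not tested.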

How the results depend on the processing

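No called value changed direction under any alternative. The number of members called for polysome against input ran from 5 to 7 in unstimulated control, 4 to 6 in IL-13 control, 5 to 6 in unstimulated knockdown and 4 to 6 in IL-13 knockdown cells, and from 7 to 8 for the mean of 4 conditions. The line comparisons had 0 members called, except that leaving out 1 library each gave 0 to 1 for unstimulated polysome and 0 to 1 for polysome over both treatments (METTL14, without unstimulated control polysome replicate 3). METTL3 in IL-13 control cells lost its call in 5 settings (adjusted p 0.0500006 to 0.224) in unstimulated knockdown cells in 1 (0.0857) and in IL-13 knockdown cells in 3 (0.0533 to 0.220), and YTHDF3 in IL-13 control cells in 5 (0.0534 to 0.154). Other calls were gained (adjusted p in edgeR or limma). METTL3 gained 1 in unstimulated control cells in 2 settings (0.0130 to 0.0404), and METTL14 in IL-13 control cells in 2 (0.00228 to 0.0195). WTAP gained 1 in IL-13 knockdown cells in 2 settings (0.00927 to 0.0244), and FTO in unstimulated knockdown cells in 1 (0.00386). YTHDF3 gained 1 in each remaining condition, in 1 setting each (0.0218, 0.00202 and 0.0317). The cause of these losses and gains was not tested. METTL14 could not be tested for IL-13 in control polysome on those 2 groups alone, where too few counts remained. The median difference of all genes was -0.18 with DESeq2 size factors against -0.24. The order of input levels kept 7 to 9 of its 9 neighbouring pairs in each input group and without each library.

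Correlation did not show that replicate numbers pair the libraries, and weak correlation cannot exclude a shared culture. Input and polysome of the same line, treatment and number correlated between -0.487 and 0.621 in their deviations from group means, over 0.1 in 9 of 20 cases, and 4 of 20 matched best with their own number. With the number as a replicate block the members called in the 4 conditions and the mean were 5, 4, 5, 5 and 8, with the culture as a block 5, 5, 5, 4 and 8, and none for line or IL-13. The lowest METTL14 count above 0 in polysome was 10, while polysome libraries with METTL14 at 0 held up to 32876710 counts. The part of depth in the low values was not tested.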

Other observations

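Within groups, the input levels of some members moved together from library to library. Deviations of log2(CPM + 1) from the group mean were correlated for all 45 pairs of members over 20 input libraries, with permutations within groups, after the data had been seen. Of these, 13 had an adjusted permutation p under 0.05 for Pearson's r, 7 positive and 6 negative. Some of them did not pass for the rank correlation rho, among them VIRMA and YTHDF1 (adjusted permutation p = 0.0304 for r and 0.0551 for rho). The share among pairs of other genes was not taken, so neither this count nor the pairs below are particular to m6A genes on these values. The readers YTHDF3 and YTHDC1 gave r = 0.91 and rho = 0.91 (permutation p = 0.00001 for both, adjusted 4.5e-04), and r = 0.89 without the 2 libraries farthest from the median. METTL3 and ALKBH5 rose and fell together (r = 0.81, rho = 0.85, permutation p = 0.00005 and 0.00004, adjusted 0.00112 and 6.0e-04, r = 0.81 without 2 libraries). METTL3 and WTAP, subunits of the same complex, moved against each other (r = -0.81, rho = -0.86, permutation p = 0.00013 and 0.00004, adjusted 0.00195 and 6.0e-04, r = -0.85 without 2 libraries). WTAP and YTHDF2 moved together (r = 0.80, rho = 0.76, permutation p = 0.00036 and 0.00065, adjusted 0.00405 and 0.00585, r = 0.76 without 2 libraries). With the mean of each replicate number also removed, these r values were 0.90, 0.83, -0.85 and 0.81. The level of long relative to short genes, taken as the same deviations and tested the same way against all 10 members, moved with YTHDF3 (r = 0.72, rho = 0.73, permutation p = 0.0031 and 0.00263, adjusted 0.031 and 0.0263, r = 0.62 without 2 libraries). The other 9 members did not pass adjustment, among them YTHDC1 (r = 0.56, rho = 0.52, permutation p = 0.0325 and 0.0457, adjusted 0.120 and 0.168, r = 0.45 without 2 libraries). Its part in these correlations was not tested.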
